A study of Mus musculus with 6 samples.

Results

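Hexokinase 2 (Hk2) and the phosphofructokinase subunits Pfkl and Pfkp are enzymes of early glycolysis, and they were followed as 3 genes of the 9519 that could be read in these kidney libraries. The members were fixed by name. Each deposited row of counts was given to the gene whose exons in the mouse assembly GRCm38 (GENCODE M21 basic transcripts) made up at least 0.9 of the exon bases under the row's intervals, with at least 25 bases, and a gene's rows were then summed. Row names were not used, because 10641 of the 12401 rows placed in this way carry another name than the gene they lie on in GRCm38. The build of the row intervals is not named, and that the reads were aligned to GRCm38 is an assumption that was not tested.

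The kidneys came from C57BL/6 mice at postnatal day 21, and total RNA was made into paired-end RNA sequencing libraries. Of the 6 libraries, 3 carry the diagnosis acute renal failure (ARF) and 3 the diagnosis healthy. Their titles call them treat and control, without naming a treatment or the way renal failure was brought about. The deposited files of these groups carry the words mutant and WT, but no mutated gene or allele is named. The labels do not tie the 3 libraries of either group to different mice. The p-values therefore rest on library-to-library spread, which may be technical.

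Total counts were 5455886, 5525366 and 6191479 in the libraries labelled ARF, and 5710010, 2873370 and 3630813 in those labelled healthy. Of 5246 genes with enough counts to test, 2624 differed between the groups (edgeR's quasi-likelihood test, Benjamini-Hochberg adjusted p under 0.05). They split into 1319 higher and 1305 lower in the libraries labelled ARF, or 1749 and 1013 when libraries were scaled by total count. Krt8, a keratin of simple epithelia, and Clu, the secreted chaperone clusterin, are both known to rise in injured tubules. They had log2 fold changes of -2.82 and -2.54, lower in the libraries labelled ARF, and were chosen after their values were seen. Separately, of 9 proximal tubule markers tested, 7 were lower in the libraries labelled ARF, beside 24.9% of all genes tested. The groups are called ARF-labelled and healthy-labelled. Log2 fold changes are ARF-labelled minus healthy-labelled, levels are CPM (counts scaled to library size with TMM factors), and each mean stands with its SD (n = 3 libraries).

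Hexokinases phosphorylate glucose and so trap it in the cell. Hexokinase 1 is the constitutive form of most tissues, while hexokinase 2 is the inducible form, abundant in insulin-responsive muscle and fat, and can dock on the outer mitochondrial membrane. Phosphofructokinase catalyses the committed step of glycolysis as a tetramer of liver (Pfkl), muscle (Pfkm) and platelet (Pfkp) type subunits, which differ in their response to metabolites. In the kidney, the proximal tubule mainly burns fatty acids and makes glucose, whereas more distal segments have a higher capacity for glycolysis.

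All 3 genes lie on the minus strand of GRCm38, and each was counted over part of its exons. Hk2 (ENSMUSG00000000628.10, chromosome 6, 82725025 to 82774454) was read through 345 of its 5614 exon bases. These were the coding exons 5 and 6, in the row named Gm17034, and 149 bases of the 3′ untranslated part of exon 18, in the row named Hk2. Pfkl (ENSMUSG00000020277.10, chromosome 10, 77986947 to 78010083) was read through 304 of 3730 bases: 141 bases of exon 1, of which 17 are coding, in the row named Pwp2, and exon 2 with 89 bases of exon 5 in the row named Gatd3a. Pfkp (ENSMUSG00000021196.14, chromosome 13, 6579768 to 6648777) was read through 1122 of 4298 bases. The row named Pfkp held exons 1 and 2, the row named Pitrm1 held parts of exons 3, 7, 9 and 13, and the row named 2900042G08Rik held 650 bases of the 3′ untranslated part of exon 22.

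**Figure D1:**
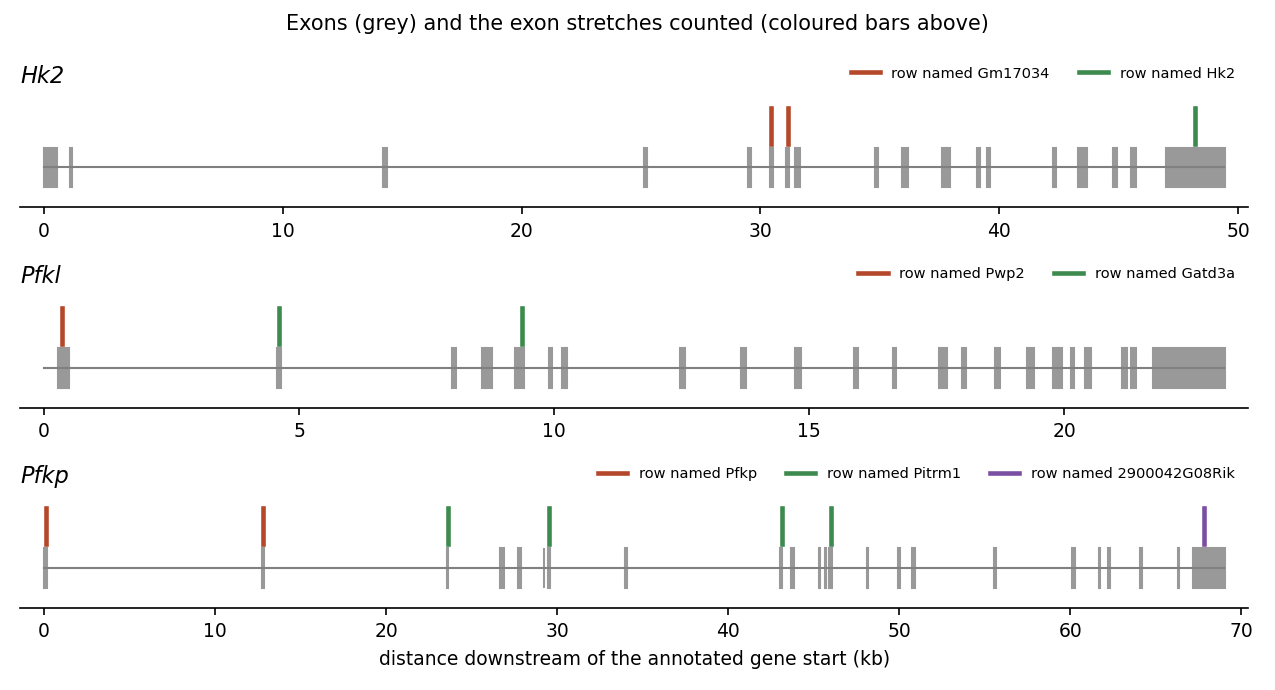
Position of the counted exon stretches in Hk2, Pfkl and Pfkp. The horizontal axis is the distance downstream of the annotated gene start in kilobases, grey boxes are exons, and coloured bars mark the centre of each counted stretch, 1 colour per deposited row. Hk2 was read in the middle and at the 3′ end, Pfkl within its first 5 exons, and Pfkp along its whole length.

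The counted coding exons of Hk2 are shown because the largest change of the 3 genes was read in the row that holds them. Capitals mark counted bases, which here are the whole exons (GRCm38, minus strand, from its GENCODE M21 transcript).
Hk2 exon 5 (chr6:82743945-82744040): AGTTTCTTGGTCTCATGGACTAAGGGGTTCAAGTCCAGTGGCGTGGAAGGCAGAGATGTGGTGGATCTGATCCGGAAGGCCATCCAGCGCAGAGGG
Hk2 exon 6 (chr6:82743268-82743367): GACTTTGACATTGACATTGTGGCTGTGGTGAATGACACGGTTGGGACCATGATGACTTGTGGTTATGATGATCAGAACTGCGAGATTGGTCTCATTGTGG
Hexokinase 2 has a duplicated structure, and the corresponding exons further along, 13 and 14, have the same lengths. Exon 5 matched exon 13 at 57 of 96 bases and exon 6 matched exon 14 at 79 of 100 bases in an ungapped comparison.

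Exon 2 was counted whole in both phosphofructokinase genes and has 74 bases in each, so it shows how far the subunit genes can be told apart by their reads. Capitals mark the bases that differ between the pair (GRCm38, minus strand, from GENCODE M21 transcripts).
Pfkl exon 2 (chr10:78005441-78005514): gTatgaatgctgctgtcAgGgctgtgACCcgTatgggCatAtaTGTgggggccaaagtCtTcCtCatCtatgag
Pfkp exon 2 (chr13:6635925-6635998): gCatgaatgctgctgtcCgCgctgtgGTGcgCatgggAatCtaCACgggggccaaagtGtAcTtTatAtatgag
They were identical at 57 of 74 bases (77.0%), and the 17 differences lay along the whole exon. None of the counted exon stretches of Hk2, Pfkl or Pfkp shared a window of 30 bases with an annotated transcript of another gene, on either strand. The intron bases and bases outside the genes that the rows also span were not searched, so reads of other genes there were not tested.

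Hk2, Pfkl and Pfkp all passed the filter on low counts and all were called, with Hk2 and Pfkp lower and Pfkl higher in the ARF-labelled libraries. Among all genes tested, 24.9% were called lower and 25.1% higher, so a call by itself is common in these data. What set Hk2 apart was its size: its log2 fold change was number 26 from the lowest of 5246, whereas Pfkp was number 1108 from the lowest and Pfkl number 472 from the highest.

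Hk2 had 31, 29 and 50 counts in the ARF-labelled libraries, against 829, 337 and 348 counts in the healthy-labelled libraries. Scaled to depth these were 5.31, 5.03 and 7.51 CPM in the ARF-labelled libraries and 156, 123 and 102 CPM in the healthy-labelled libraries. Every ARF-labelled library stood far below every healthy-labelled one, and the groups did not overlap, as in 29.1% of genes in that direction. The mean was 5.95 ± 1.36 CPM in the ARF-labelled and 127 ± 27.4 CPM in the healthy-labelled libraries, 21.3-fold lower in the ARF-labelled ones (log2 fold change -4.40, SE 0.23, edgeR adjusted p = 7.65e-06).

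Both stretches of Hk2 fell on their own. In coding exons 5 and 6 the counts were 16, 10 and 24 in the ARF-labelled and 452, 171 and 166 in the healthy-labelled libraries (log2 fold change -4.57, SE 0.30, edgeR adjusted p over 10919 rows = 7.71e-06). In the 3′ untranslated stretch they were 15, 19 and 26 in the ARF-labelled and 377, 166 and 182 in the healthy-labelled libraries (-4.21 on the log2 scale, SE 0.20, edgeR adjusted p = 1.70e-06). The separation was therefore seen in both rows. Of all rows tested, 22.6% were called lower. The first of these rows also spans 2033 intron bases of Hk2, and the second 1156 intron bases and 4664 bases outside the gene, in part inside the neighbouring gene Pole4 but on none of its exons.

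Pfkl, the liver type subunit, had 513, 669 and 568 counts in the ARF-labelled libraries and 191, 139 and 136 counts in the healthy-labelled libraries. These were 87.9, 116 and 85.4 CPM in the ARF-labelled and 36.0, 50.5 and 39.9 CPM in the healthy-labelled libraries. All 3 ARF-labelled libraries were above all healthy-labelled ones, as in 31.1% of genes in that direction. The mean was 96.5 ± 17.1 CPM in the ARF-labelled and 42.1 ± 7.52 CPM in the healthy-labelled libraries, 2.29-fold higher in the ARF-labelled ones (log2 fold change 1.20, SE 0.18, edgeR adjusted p = 0.000754).

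Most of the Pfkl counts came from the row on exons 2 and 5, which also spans 2364 intron bases. It had 469, 614 and 516 counts in the ARF-labelled and 183, 120 and 123 in the healthy-labelled libraries (log2 fold change 1.23, SE 0.17, edgeR adjusted p = 0.000348). The row on exon 1, which also spans 1530 intron bases and 2201 bases outside Pfkl, held few counts, 44, 55 and 52 in the ARF-labelled and 8, 19 and 13 in the healthy-labelled libraries. Its log2 fold change of 1.15 (SE 0.44) was close to that of the other stretch but was not called (edgeR adjusted p = 0.0588). It was 1.72 (adjusted p = 0.0118) without healthy-labelled replicate 2, the shallowest library, and 0.68 (adjusted p = 0.145) without healthy-labelled replicate 1. Of all rows tested, 23.6% were called higher.

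Pfkp, the platelet type subunit, had 1380, 1714 and 1421 counts in the ARF-labelled libraries and 2126, 1161 and 1268 counts in the healthy-labelled libraries. Because healthy-labelled replicates 2 and 3 were shallower, the difference appears only after scaling: 237, 298 and 214 CPM in the ARF-labelled and 401, 422 and 372 CPM in the healthy-labelled libraries. The highest ARF-labelled library stayed below the lowest healthy-labelled one, as in 29.1% of genes in that direction. The mean was 249 ± 43.4 CPM in the ARF-labelled and 398 ± 25.1 CPM in the healthy-labelled libraries, 1.60-fold lower in the ARF-labelled ones (log2 fold change -0.68, SE 0.14, edgeR adjusted p = 0.00458).

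The 3 stretches of Pfkp fell by like amounts. The row on exons 3, 7, 9 and 13 also spans 4596 intron bases. It averaged 179 ± 31.9 CPM in the ARF-labelled and 283 ± 22.8 CPM in the healthy-labelled libraries (log2 fold change -0.66, SE 0.14, edgeR adjusted p = 0.00484). The row on exons 1 and 2, which also spans 10753 intron bases and 2367 bases outside Pfkp, averaged 40.8 ± 7.36 CPM in the ARF-labelled and 66.6 ± 2.06 CPM in the healthy-labelled libraries (log2 fold change -0.71, SE 0.15, edgeR adjusted p = 0.00404). The 3′ untranslated row averaged 31.0 ± 5.38 CPM in the ARF-labelled and 46.4 ± 5.62 CPM in the healthy-labelled libraries (log2 fold change -0.58, SE 0.16, edgeR adjusted p = 0.0149), and lost its call without ARF-labelled replicate 1 (adjusted p = 0.0594) or 3 (adjusted p = 0.0584). These rows held between 1.69 and 33.9 counts per exon base within 1 gene, so levels were not compared between genes. The lowest was the 3′ untranslated row, with 0 intron bases, and the highest the row on exons 3, 7, 9 and 13.

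**Figure D2:**
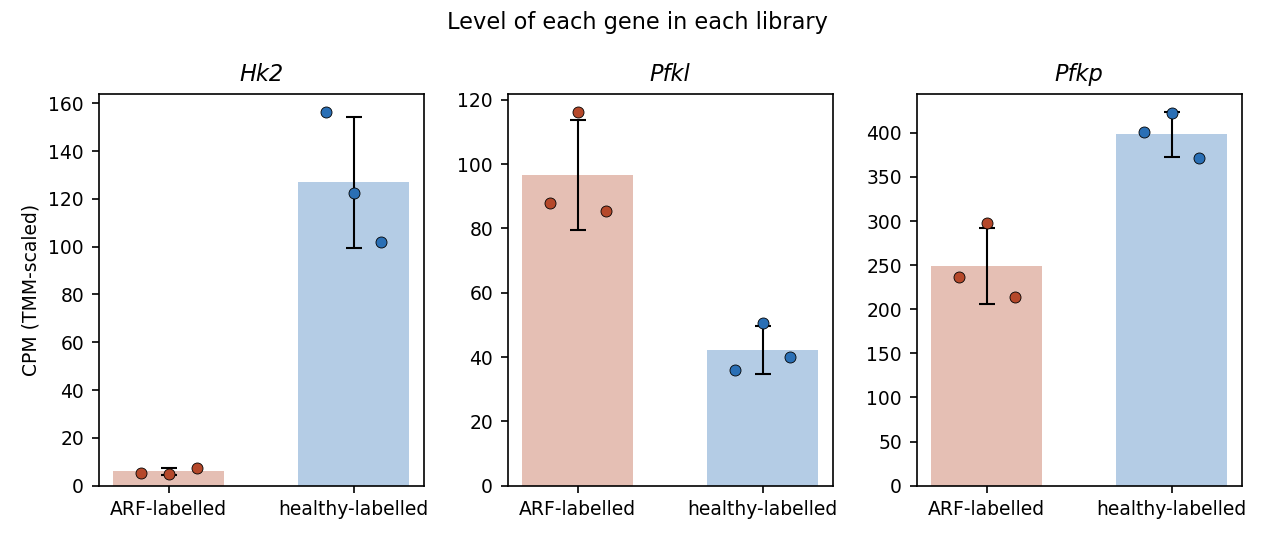
TMM-scaled CPM of Hk2, Pfkl and Pfkp (vertical axes, from 0, with a scale of their own) in the ARF-labelled libraries (left) and the healthy-labelled libraries (right). Points are libraries, bars are means and error bars are SD over 3 libraries. Hk2 sits at 5.03 to 7.51 CPM in the ARF-labelled and 102 to 156 CPM in the healthy-labelled libraries. Pfkl is higher and Pfkp lower in the ARF-labelled libraries. The groups do not overlap in any panel, as in 31.1% of all genes tested in the higher and 29.1% in the lower direction.

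**Figure D3:**
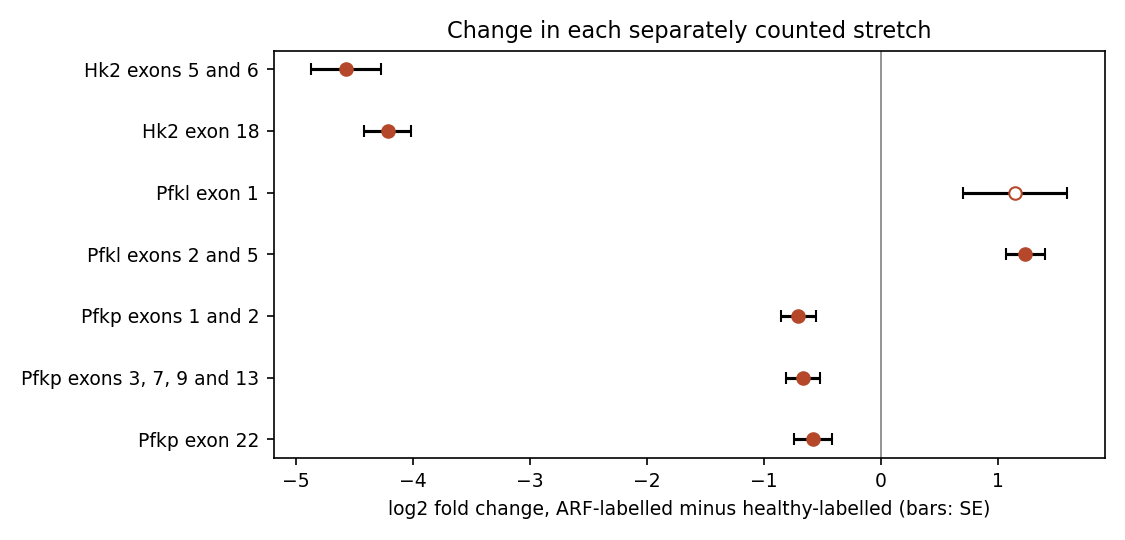
Log2 fold change, ARF-labelled minus healthy-labelled, with SE, for each deposited row that lies on Hk2, Pfkl or Pfkp, listed down the page by gene and exon. Filled points had an edgeR adjusted p under 0.05 over all rows. Stretches of the same gene lie close together: near -4.4 for Hk2, 1.2 for Pfkl and -0.7 for Pfkp, and exon 1 of Pfkl, the open point, has the widest error bar.

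Ratios of counts within a library do not depend on depth or scaling. Pfkp had 2.69, 2.56 and 2.50 counts for each Pfkl count in the ARF-labelled libraries and 11.1, 8.35 and 9.32 in the healthy-labelled libraries. The log2 ratio averaged 1.37 ± 0.05 in the ARF-labelled and 3.25 ± 0.21 in the healthy-labelled libraries, a difference of -1.88 (exact two-sided permutation test, p = 0.10). The Hk2 to Pfkl ratio differed by -5.61 on the log2 scale and the Hk2 to Pfkp ratio by -3.73 (p = 0.10 in each exact permutation test). The groups did not overlap in any of the 3 ratios, but 0.10 is the smallest p that 3 libraries against 3 allow, and it stays 0.10 after adjustment over the 3 ratios.

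The other hexokinase and phosphofructokinase genes were read alongside. Hk1, the constitutive hexokinase, had 466, 566 and 518 CPM in the ARF-labelled and 442, 470 and 422 CPM in the healthy-labelled libraries, which overlap, and was not called (log2 fold change 0.22, SE 0.12, edgeR adjusted p = 0.156). When libraries were scaled by total count, which moved the median of all genes to 0.19, the value was 0.39 and the adjusted p = 0.0200. Hkdc1, a hexokinase-like gene beside Hk1 on the same chromosome, was lower at 3.50 ± 1.47 CPM in the ARF-labelled and 10.03 ± 2.04 CPM in the healthy-labelled libraries (log2 fold change -1.50, SE 0.36, edgeR adjusted p = 0.00812). Its row also touches Hk1, and whether Hk1 reads are among its counts was not tested. Hk2 made up 1.14% ± 0.269 of the summed Hk1, Hk2 and Hkdc1 counts in the ARF-labelled and 21.7% ± 3.48 in the healthy-labelled libraries.

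Pfkm, the muscle type subunit, was read through 809 exon bases on chromosome 15 and had 151, 176 and 141 CPM in the ARF-labelled and 38.6, 49.8 and 42.8 CPM in the healthy-labelled libraries. It rose, with no overlap, as in 31.1% of genes in that direction (log2 fold change 1.84, SE 0.14, edgeR adjusted p = 3.07e-05). Of the summed counts of the 3 subunit genes, Pfkp held 49.6% ± 0.951 in the ARF-labelled and 82.3% ± 1.80 in the healthy-labelled libraries. Pfkm held 31.2% ± 1.20 in the ARF-labelled and 9.03% ± 0.780 in the healthy-labelled libraries, and Pfkl 19.2% ± 0.639 in the ARF-labelled and 8.67% ± 1.05 in the healthy-labelled libraries. These are shares of counts over the stretches that were read, not shares of transcripts, and only their change between groups can be read.

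**Figure D4:**
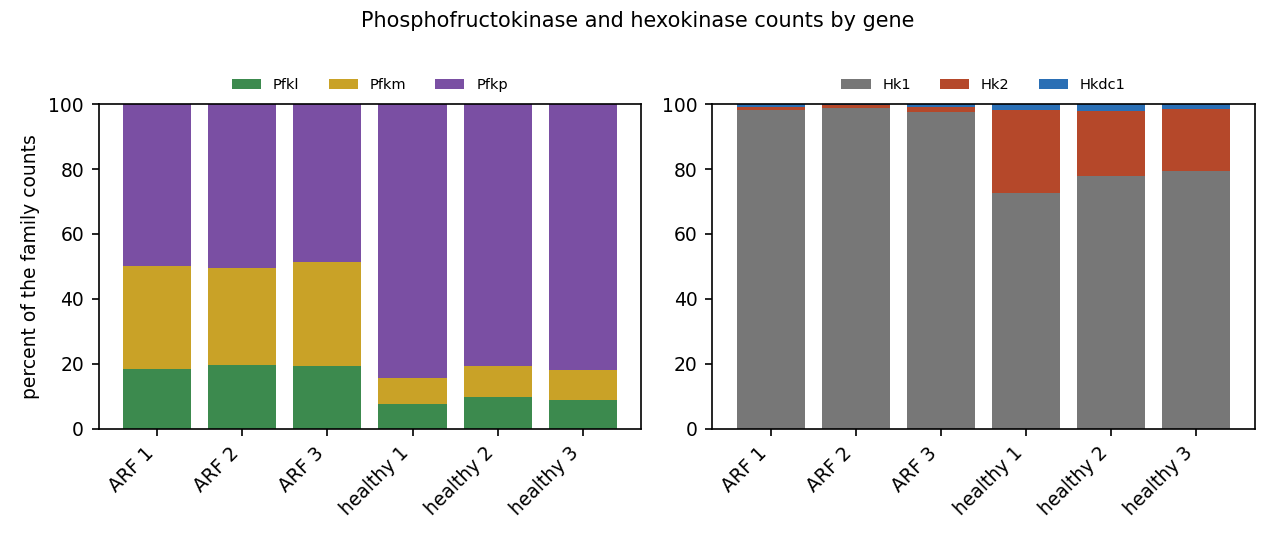
Percent of the family's counts (vertical axis, 0 to 100) from each phosphofructokinase gene (left panel) and each hexokinase gene (right panel) in each library, ARF-labelled libraries first. Pfkp takes 48.6% to 50.5% in the ARF-labelled and 80.8% to 84.3% in the healthy-labelled libraries, and Hk2 takes 0.879% to 1.42% in the ARF-labelled and 19.2% to 25.7% in the healthy-labelled libraries.

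Phosphofructokinase is activated by a fructose bisphosphate that the bifunctional Pfkfb enzymes make and break down and that Tigar removes. Pfkfb4 fell, with 5.35 ± 0.449 CPM in the ARF-labelled and 14.6 ± 0.601 CPM in the healthy-labelled libraries (log2 fold change -1.44, SE 0.20, edgeR adjusted p = 0.000585). Tigar rose slightly (log2 fold change 0.58, SE 0.12, edgeR adjusted p = 0.00482). Pfkfb3, the inducible form, was not called, with 115 ± 9.44 CPM in the ARF-labelled and 113 ± 39.5 CPM in the healthy-labelled libraries (log2 fold change 0.03, edgeR adjusted p = 0.928).

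The rest of the pathway was read from lists of glucose and fuel metabolism. The 14 lists held 176 genes besides the 3 members, of which 65 could be read and 62 were tested. In the ARF-labelled libraries 16 of the 62 were higher and 20 lower, together 58.1%, against 50.0% of all genes tested. Their median log2 fold change was 0.04, beside 0.01 over all genes.

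Among 6 other glycolytic enzymes tested, 1 was higher, 2 were lower and 3 were not called. Eno3, the muscle enolase, rose (log2 fold change 2.05, SE 0.34), from a low level of 8.70 ± 2.69 CPM in the ARF-labelled and 2.07 ± 0.269 CPM in the healthy-labelled libraries. Pklr, a pyruvate kinase of liver and red cells, fell (-1.68, SE 0.35). Aldoa (0.20, edgeR adjusted p = 0.276), Pgam1 (0.30, adjusted p = 0.0537) and the phosphatase gene Minpp1 (-0.19, adjusted p = 0.298) were not called. Aldoa and Pgam1 were called with scaling by total count (edgeR adjusted p = 0.0466 and 0.00675), and Pgam1 also without ARF-labelled replicate 1 (adjusted p = 0.0409). Both are known to have processed pseudogenes, so their counts are uncertain. Gapdh was listed at 0 in every library over the bases read.

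Of 4 genes of lactate production and export tested, Slc16a3, the lactate exporter of glycolytic cells, fell to 4.38 ± 0.726 CPM in the ARF-labelled against 31.1 ± 8.98 CPM in the healthy-labelled libraries (log2 fold change -2.81, SE 0.27, edgeR adjusted p = 8.59e-05). Slc16a7, a high-affinity monocarboxylate transporter, rose (1.75, SE 0.14), as did Emb, a chaperone of such transporters (1.25, SE 0.19). The chaperone Bsg was not called (0.17, adjusted p = 0.227), except with scaling by total count (adjusted p = 0.0230). The single gluconeogenesis gene tested, Fbp2, was not called (0.07, edgeR adjusted p = 0.889).

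**Figure D5:**
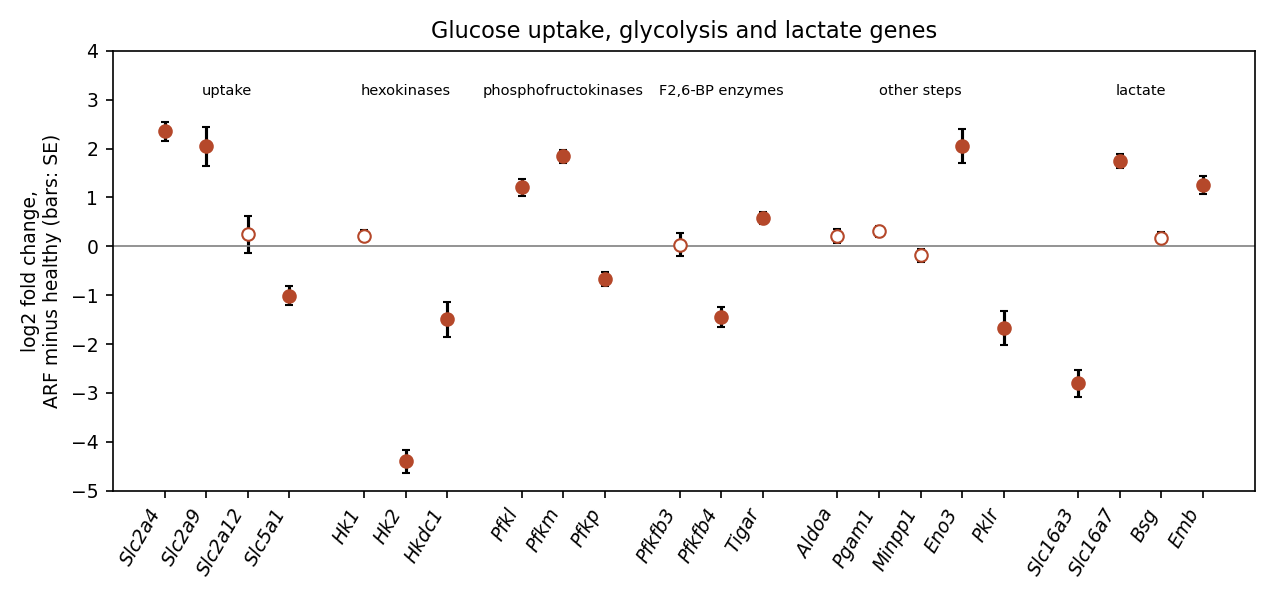
Log2 fold change, ARF-labelled minus healthy-labelled, with SE (vertical axis) for genes of glucose uptake, glycolysis and lactate transport in order of their step. Filled points had an edgeR adjusted p under 0.05. Hk2 at -4.40 lies below every other gene shown, Slc16a3 at -2.81 is next, and Slc2a4 at 2.35 is the highest.

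In the branches beside glycolysis, 2 of 4 glucose transporters tested were higher and 1 lower, led by Slc2a4, the insulin-responsive transporter (log2 fold change 2.35, SE 0.19), and Slc2a9, a urate transporter (2.05, SE 0.40). Of 5 genes for pyruvate entry into mitochondria, 2 were lower: Pdk4 (-1.10, SE 0.22), a kinase that shuts pyruvate dehydrogenase, and Pdp1 (-1.07, SE 0.12), the phosphatase that opens it. H6pd, the pentose phosphate enzyme of the endoplasmic reticulum, was the 1 of 2 called, at -1.54 (SE 0.12). Of 9 glycogen genes, 5 were higher and 3 lower, led by the phosphorylase kinase gene Phkg1 (3.90, SE 0.43, on 5, 2 and 1 counts in the healthy-labelled libraries) and the phosphatase targeting gene Ppp1r3b (-2.12, SE 0.44). When rows with at least 0.5 of their exon bases in a gene were accepted, Phkg1 was at 0.01 and not called (adjusted p = 0.973). Uap1 was the 1 of 2 hexosamine genes called (-0.67, SE 0.13).

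Hypoxia-inducible factors and AKT signalling are known regulators of Hk2, but their part in its change here was not tested. Of 23 genes on the hypoxia list 7 were tested, and the factor gene Hif1a was not among them. Of the 7, 1 was higher, 2 were lower and 4 were not called. The higher one was Mxi1 (log2 fold change 0.76, SE 0.15). Epas1, an oxygen-regulated transcription factor (log2 fold change -1.48, SE 0.21), and Adm, the vasodilator adrenomedullin (-1.38, SE 0.27), were the 2 that fell. Of 10 insulin and AKT signalling genes, 2 were higher and 3 lower. Rptor, a subunit of an mTOR complex, was among the higher ones (0.55, SE 0.10). Of 5 fatty acid oxidation genes, 1 was higher and 2 lower, led by the fatty acid transporter Cd36 (-1.27, SE 0.24) and the dehydrogenase Acadl (-0.68, SE 0.14). Of 4 genes on the list of hexokinase docking on mitochondria, only Cs, a mitochondrial enzyme, was tested, and it was not called. Docking itself was therefore not read from these data.

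Markers of several cell types also differed between the groups, where 25.1% of all genes tested were called higher and 24.9% lower. Sharing the direction of a member does not tie a marker to it. In bulk tissue, fewer cells of a type and less RNA per cell cannot be told apart. Kidney markers were abundant, as the tissue label says. All 10 collecting duct markers tested were higher, with a summed level of 13621 to 16331 CPM in the ARF-labelled and 4711 to 5603 CPM in the healthy-labelled libraries, the direction of Pfkl and Pfkm. Of 9 proximal tubule markers 7 were lower, with 4345 to 5603 CPM in the ARF-labelled and 9012 to 14496 CPM in the healthy-labelled libraries, the direction of Hk2 and Pfkp. Of 4 markers of the loop of Henle and distal convoluted tubule, 2 were higher and 2 lower, with 3401 to 6043 CPM in the ARF-labelled and 890 to 2117 CPM in the healthy-labelled libraries.

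Of 8 neutrophil and macrophage markers 7 were lower, with 35.0 to 36.8 CPM in the ARF-labelled and 103 to 247 CPM in the healthy-labelled libraries, again the direction of Hk2 and Pfkp. Of 5 endothelial markers 3 were lower, with 118 to 131 CPM in the ARF-labelled and 181 to 327 CPM in the healthy-labelled libraries, in the same direction. Of 3 adipocyte markers 1, Lep, was lower, with a summed level of 25.5 to 49.0 CPM in the ARF-labelled and 41.5 to 374 CPM in the healthy-labelled libraries. Lep had 277 CPM in healthy-labelled replicate 2, against 18.9 and 51.6 CPM in healthy-labelled replicates 1 and 3. Of 3 red blood cell markers 2 were lower and 1, Slc4a1, which intercalated cells also express, was higher. The summed level was 1396 to 1963 CPM in the ARF-labelled and 322 to 1130 CPM in the healthy-labelled libraries. Slc4a1, also counted as a collecting duct marker, averaged 1610 CPM in the ARF-labelled and 222 CPM in the healthy-labelled libraries. In the same order, Hbb-bs averaged 44.5 and 461 CPM and Alas2 5.51 and 41.0 CPM. Hbb-bt was listed at 0. Of 8 muscle markers read, 5 stayed below the filter, among them the defining genes Ckm and Myh4, and 1 of 3 tested was higher, with 30.9 to 62.4 CPM in the ARF-labelled and 16.4 to 23.6 CPM in the healthy-labelled libraries. The proliferation marker Mcm2 was not called. The part of these cell types in the changes of Hk2, Pfkl and Pfkp was not tested.

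By the likeness of their levels over the 6 libraries, measured as the root mean square difference between centred log2(CPM + 0.5) profiles, the genes nearest to Hk2 were Ceacam1 (0.23), Mmp3 (0.27), Prss22 (0.33), Adam8 (0.41) and Glipr2 (0.44). Ceacam1, a cell adhesion gene, averaged 18.7 CPM in the ARF-labelled and 346 CPM in the healthy-labelled libraries, and Mmp3, a matrix protease gene, 2.45 CPM in the ARF-labelled and 59.0 CPM in the healthy-labelled libraries. Nearest to Pfkl were Zfp420, Ceacam2, Shisa7, Peli3 and Wrap73, at 0.11 to 0.13. Nearest to Pfkp were Ttc37, Nufip1, Irf2, Tars and Thumpd1, at 0.05 to 0.09. Pfkl and Pfkp thus had closer neighbours than Hk2. A profile over 2 groups of 3 libraries carries the group difference and little else.

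The promoters of the 3 genes, 250 bases before to 50 bases after the RefSeq start (build GRCm38.p6, minus strand), are shown because the genes moved in different directions and the first exons of Pfkl and Pfkp were among the counted stretches. Capitals mark matches on either strand to the hypoxia response core (ACGTG or GCGTG), the cAMP response core (TGACG) and the CCAAT box (CCAAT). In Hk2 a hypoxia core and the cAMP response core overlap and form 1 run of capitals.
Hk2 promoter (chr6:82774405-82774704): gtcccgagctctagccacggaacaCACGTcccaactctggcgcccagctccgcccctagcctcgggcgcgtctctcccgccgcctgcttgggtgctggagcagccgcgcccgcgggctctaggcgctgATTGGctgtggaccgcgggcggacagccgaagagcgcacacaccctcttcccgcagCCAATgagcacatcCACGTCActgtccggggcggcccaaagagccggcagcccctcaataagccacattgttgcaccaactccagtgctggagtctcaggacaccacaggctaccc
Pfkl promoter (chr10:78009758-78010057): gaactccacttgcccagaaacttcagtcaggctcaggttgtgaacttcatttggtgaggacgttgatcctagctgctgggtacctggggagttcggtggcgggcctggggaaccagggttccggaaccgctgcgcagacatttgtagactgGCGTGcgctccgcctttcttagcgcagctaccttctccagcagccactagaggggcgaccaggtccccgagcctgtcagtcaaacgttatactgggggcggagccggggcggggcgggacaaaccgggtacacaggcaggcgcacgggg
Pfkp promoter (chr13:6648722-6649021): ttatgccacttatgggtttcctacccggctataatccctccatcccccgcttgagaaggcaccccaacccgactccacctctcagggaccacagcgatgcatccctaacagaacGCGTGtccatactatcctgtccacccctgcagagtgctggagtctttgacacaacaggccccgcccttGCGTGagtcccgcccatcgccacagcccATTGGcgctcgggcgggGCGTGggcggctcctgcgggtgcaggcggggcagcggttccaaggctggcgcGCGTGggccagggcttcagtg

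The hypoxia core matched 2 times in the Hk2, 1 time in the Pfkl and 4 times in the Pfkp promoter, and 43.8% of 32851 promoters of this length hold it. The cAMP response core matched 1 time in Hk2 and in neither phosphofructokinase promoter (20.8% of promoters). The CCAAT box matched 2 times in Hk2, 0 times in Pfkl and 1 time in Pfkp (37.4% of promoters). The GC box (GGGCGG), not marked, matched 3, 3 and 4 times in Hk2, Pfkl and Pfkp (35.7%). The E-box (CACGTG, 7.15%) and the TATA motif (TATAAA, 13.6%) had no match in the 3 windows. GC content was 67.3% in Hk2, 62.3% in Pfkl and 64.7% in Pfkp, above the median of 52.7% over all promoters.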

How the data were processed

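The authors deposited a file of counts per library. A series table holds the same counts for 53509 rows and leaves out 37 rows with 0 counts. Per the file headers, featureCounts 2.0.1 counted read pairs over exons and added them up per gene name. It required both mates to be aligned, dropped chimeric pairs and did not use strand. The headers also name the alignment files by public sequencing run identifiers, and whether those runs belong to these samples was not tested. Bowtie 0.12.2 and mm9 appear in the submitters' processing notes, without a role; no source used here names the aligner behind the counts. The table's values named FPKM were not used.

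Row intervals were intersected with GRCm38 exons (GENCODE M21 basic, protein-coding and long non-coding genes, no read-through transcripts) with bedtools 2.31.1 and named as the report says, which gave 12401 rows, 9519 genes and 63.0% of the counts. A fragment counts when it touches an interval, so reads from introns inside a row's intervals are included. The members and lists were chosen with earlier results of these data known.

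Groups were compared by quasi-likelihood F-tests in edgeR 4.0.16 (R 4.3.3) with TMM, filterByExpr, totals taken over every row, and a model with group alone, two-sided, adjusted over all genes or rows tested. The fit was tested on simulated data with known changes. These were in far fewer genes than were called here and equally up and down, so the scaling of the real data was not tested by them. SEs were obtained by dividing the absolute log2 fold change by the root of F. Over all genes tested the median log2 fold change was 0.01 with TMM, 0.00 with DESeq2 size factors and 0.19 with scaling by total count. Alternatives used DESeq2 1.42.0 and limma 3.58.1. Genes named beside the 3 were every tested gene of the hexokinase, phosphofructokinase, glycolysis, lactate and gluconeogenesis lists, the 2 called genes with the largest change on other metabolic lists, and the 5 genes most like each member read through at least 100 exon bases; some that this rule names are not reported here. Krt8, Clu, Mxi1 and marker genes were named after their values were seen. Promoters are from RefSeq; all 3 members matched by symbol.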

Additional observations from a re-analysis of the deposited data

How the results depend on the processing

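Hk2, Pfkl and Pfkp kept their direction and their side of the threshold in all 15 alternatives (DESeq2 size factors, scaling by total count, the DESeq2 Wald test, limma-voom, no filter, a replicate block, 3 other rules for naming rows, and leaving out each library). The log2 fold change ranged from -4.60 to -4.23 for Hk2, 1.06 to 1.37 for Pfkl and -0.81 to -0.51 for Pfkp, with the highest adjusted p at 8.93e-05, 0.00571 and 0.0211 in that order. The 3 other rules for naming rows left the ratios between the members' counts unchanged. These rules could move the members only through scaling and the fit. Genes called higher numbered 985 to 1749 and lower 1013 to 1796, beside 1319 and 1305. Of the separate stretches, exon 1 of Pfkl was called with scaling by total count (1.30), the DESeq2 Wald test (1.10), limma-voom (1.43), no filter (1.24) and the replicate block (1.21), and lay between 0.68 and 1.72 when 1 library was left out; the cause was not tested. The 3′ stretch of Pfkp lay between -0.75 and -0.50 when 1 library was left out. Pfkfb3 (-0.25 to 0.23) and Fbp2 (-0.22 to 0.34), neither of them called, changed direction when 1 library was left out.

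No pairing by replicate number was seen. Same-numbered libraries had correlations of -0.07, -0.22 and -0.29 in their deviations from the group means, and 0 of 6 correlated best with their own number. Deviations from means of 3 libraries cannot exclude a pairing. With the replicate block Hk2 was at -4.39, Pfkl at 1.20 and Pfkp at -0.69, and 1135 genes were called higher and 1153 lower. The exact sign-flip test of the ratios with the block gave p = 0.25, the smallest that 3 pairs allow. The ARF-labelled Hk2 values rest on 29 to 50 counts a library, and those of Pfkl exon 1 in the healthy-labelled libraries on 8 to 19.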

Other observations

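By position in GRCm38, the deposited rows that carry these gene names do not all lie on these genes. The row named Hk2 had 60 counts in the ARF-labelled and 725 in the healthy-labelled libraries and lies in part on Hk2, and the row named Pfkp had 734 in the ARF-labelled and 761 in the healthy-labelled libraries and lies in part on Pfkp. The row named Pfkl had 0 counts in all 6 libraries and the row named Pfkm had 1 count in the ARF-labelled and 6 in the healthy-labelled libraries. Both genes were read over part of their exons through rows of other names. The row named Hk1 had 140 counts in the ARF-labelled and 87 in the healthy-labelled libraries (log2 fold change 0.07, edgeR adjusted p = 0.867), on intervals that could not be given to Hk1.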
